A study of Mus musculus with 17 samples.

Results

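The genes described here encode 7 subunits of the GABA-A receptor, of 21728 protein-coding mouse genes: Gabrg1, Gabra2, Gabra4 and Gabrb1, which lie side by side on chromosome 5, Gabra5 and Gabrg3 on chromosome 7, and Gabrb2 on chromosome 11. They were chosen by name and not by a measured value, although earlier results of these data were known. Open chromatin was taken as every peak of the 17 libraries that overlapped the mm10 gene body of a member or the 10 kb on either side of it. Overlapping peaks were merged into regions, and a region was kept when at least 2 libraries of 1 group held it. This left 262 of 147420 regions, with 138 in the chromosome 5 cluster, 59 on chromosome 7 and 65 on chromosome 11, and they are numbered R1 to R262 below.

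Chromatin accessibility was measured by ATAC-seq, which maps open DNA through the cuts of a transposase, in neuronal nuclei sorted from the nucleus accumbens by the nuclear protein NeuN. The mice were of the strain C57BL/6 by the labels and C57BL/6J by the study's methods, 52 to 54 days old, and were diestrus females, proestrus females or males. Cocaine-treated animals received 10 mg/kg of cocaine intraperitoneally 1 hour before they were killed, and control animals received no cocaine. There were 3 libraries per group, except for 2 in the male cocaine group, and each pooled 3 animals. By the study's methods the controls were a baseline without cocaine, and an injection of them is not described. Cocaine and the injection itself therefore cannot be told apart. The group of 1 diestrus cocaine library was taken from its title, since its stage label was blank.

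GABA-A receptors are chloride channels that open when they bind GABA, and they are built from alpha, beta and gamma subunits around a central pore. The alpha and beta subunits form the GABA binding site, whereas the gamma subunit helps to place receptors at synapses and forms the benzodiazepine site together with an alpha subunit. Most neurons of the nucleus accumbens are medium spiny neurons, which release GABA themselves and receive it from local interneurons and from each other, so these channels set how readily they fire. The genes are found in clusters that arose by duplication, each with neighbours of the other subunit classes.

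The sequences below belong to the regions on which the results turn, in mm10 coordinates and on the strand of the gene. The first group holds the 5′ ends at which accessibility was higher after cocaine in diestrus. For Gabrg1 the 200 bases before the annotated start are shown (chr5:70842618-70842817, minus strand), for Gabra2 the window around the summit of R45 (chr5:71095857-71096057, minus strand), and for Gabrb1 the window around the summit of R79, beside a second transcript start (chr5:71700972-71701172, plus strand).
Gabrg1 upstream: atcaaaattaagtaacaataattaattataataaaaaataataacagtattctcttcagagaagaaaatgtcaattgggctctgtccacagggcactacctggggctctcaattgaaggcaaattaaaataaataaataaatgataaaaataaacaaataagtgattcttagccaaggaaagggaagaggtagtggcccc
Gabra2 R45: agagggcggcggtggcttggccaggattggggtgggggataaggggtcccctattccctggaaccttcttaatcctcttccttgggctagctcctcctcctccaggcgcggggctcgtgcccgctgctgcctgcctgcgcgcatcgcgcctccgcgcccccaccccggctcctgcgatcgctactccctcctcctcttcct
Gabrb1 R79: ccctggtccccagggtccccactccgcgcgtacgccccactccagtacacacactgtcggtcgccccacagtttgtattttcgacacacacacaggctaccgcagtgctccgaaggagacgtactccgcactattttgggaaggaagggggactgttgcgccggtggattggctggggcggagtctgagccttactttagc

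The second group holds the summits of 4 intronic regions that were most accessible in the male control libraries: R28 (chr5:71026014-71026214, minus strand) and R34 (chr5:71061823-71062023, minus strand) in Gabra2, R107 (chr5:71829060-71829260, plus strand) in Gabrb1 and R230 (chr11:42528493-42528693, plus strand) in Gabrb2. Capitals mark AP-1 sites (TGACTCA on either strand), which Fos and Jun proteins bind, and TATA sequences (TATAAA on either strand).
Gabra2 R28: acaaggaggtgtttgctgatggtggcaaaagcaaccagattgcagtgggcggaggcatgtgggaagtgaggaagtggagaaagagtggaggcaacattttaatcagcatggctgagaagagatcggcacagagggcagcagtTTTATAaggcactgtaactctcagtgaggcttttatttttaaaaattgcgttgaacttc
Gabra2 R34: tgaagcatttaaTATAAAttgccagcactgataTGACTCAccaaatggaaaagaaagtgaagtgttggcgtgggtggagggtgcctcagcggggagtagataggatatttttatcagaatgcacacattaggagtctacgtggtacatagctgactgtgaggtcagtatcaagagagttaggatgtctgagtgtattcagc
Gabrb1 R107: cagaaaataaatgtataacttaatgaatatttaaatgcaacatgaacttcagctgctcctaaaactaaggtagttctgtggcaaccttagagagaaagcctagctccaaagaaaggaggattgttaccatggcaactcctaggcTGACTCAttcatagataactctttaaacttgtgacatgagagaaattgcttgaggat
Gabrb2 R230: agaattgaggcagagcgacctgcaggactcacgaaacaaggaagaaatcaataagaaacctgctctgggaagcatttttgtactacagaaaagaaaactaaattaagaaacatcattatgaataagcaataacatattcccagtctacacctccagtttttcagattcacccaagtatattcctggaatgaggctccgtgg

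In the summit windows, 50.7% of the bases were G or C at Gabrg1 (R5), 68.2% at Gabra2 and 60.7% at the second start of Gabrb1. In the 200 bases before the annotated start the share was 31.5% at Gabrg1 and 68% at Gabra2. The Gabrg1 sequence printed above does not hold the summit of R5. None of the first group held an AP-1, CRE (TGACGTCA) or TATA sequence. An AP-1 site stood at base 34 of the R34 window and at base 145 of the R107 window.

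The libraries held 75458 to 157005 peaks. The male cocaine libraries had the fewest, at 87707 and 75458, and 39.3% of all kept regions were called in them on average (54023 to 61973) against 68.3% in the male controls (95207 to 104227), so that a fall in the number of called regions in males is read below beside that of all genes. The 5′ ends of all 5 neuronal markers were open in every library and those of 10 or 11 of 11 medium spiny neuron markers, including Drd1 and Drd2, were open as well, while none of 4 endothelial markers and at most 1 of 5 microglial markers was. Of 5 astrocyte markers 0 to 2 were open per library, and Gfap was open in 16 of the 17 libraries. The oligodendrocyte marker Mbp was open in all 17. Markers of cortical excitatory neurons moved with sex, stage and treatment. Of 5 such markers, 4 were open in each male control and 1 in each male cocaine library, 3 in each proestrus control and 4, 2 and 4 in the proestrus cocaine libraries, and 1 or 2 in the diestrus libraries. Their summed fold enrichment was 27.4 to 31.9 in the male controls and 7.56 to 17.6 in the other libraries. A pair of libraries stood apart. Proestrus cocaine library 2 had 5 of 6 oligodendrocyte lineage markers open, with a summed fold enrichment of 27.5 against 8.06 to 13.7 elsewhere. Diestrus cocaine library 1 had the lowest mean Jaccard index of called regions with its own group (0.625, against 0.648 to 0.786 for the other libraries) and was closest to diestrus control library 3 (0.740). Diestrus cocaine libraries 2 and 3, proestrus cocaine library 2 and diestrus control library 3 also had a library of another group above their own group's mean, by smaller margins. Within each female stage, the counts of gained and lost regions and of limma calls are given with and without diestrus cocaine library 1 or proestrus cocaine library 2. For the called numbers per gene, overlaps that rest on either library are named.

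Open chromatin was spread unevenly over the 7 genes. Gabra2, whose subunit is a main alpha subunit of synapses in the striatum, held 41 kept regions over 138 kb, or 25.9 per 100 kb of the window searched. Gabra4, whose subunit pairs with the delta subunit in receptors outside the synapse, held 32 regions (29.5 per 100 kb), and Gabrb2, which encodes a widely used beta subunit, held 65 (28.4 per 100 kb). The density was lower in Gabrb1, with 64 regions over 491 kb, in Gabra5 with 10 over 102 kb, in Gabrg3 with 49 over 671 kb and in Gabrg1 with 5 over 91.6 kb. Of the 262 summits, 242 lay in introns, 8 downstream, 5 in a UTR exon and 4 upstream. Thus almost all of the accessible sites of these genes were away from their 5′ ends. In the whole set 36 regions were called in every library, and only these 36 carry a fold enrichment in all 17 libraries and could be tested for a difference in level.

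**Figure D1:**
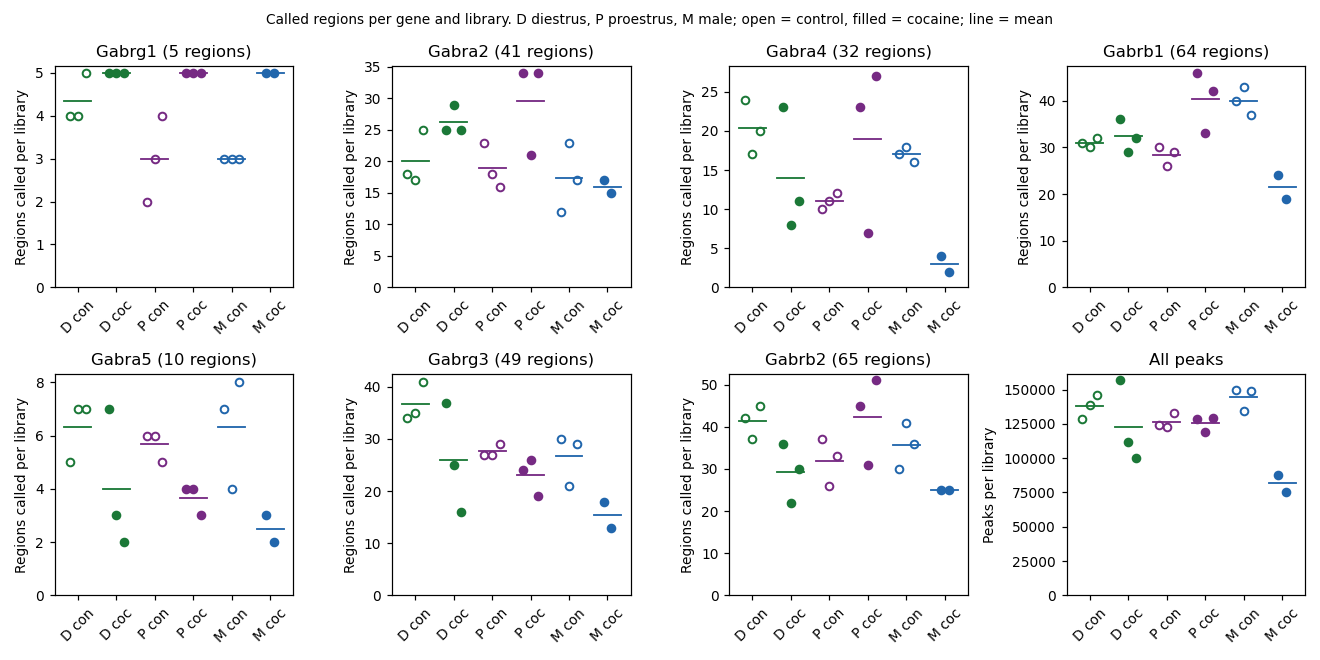
Number of member regions in which a peak was called, by gene, with 1 point per library, and in the last panel the number of all peaks of the library. D, P and M are diestrus, proestrus and male, open circles are control libraries, filled circles cocaine libraries and lines group means. All 5 Gabrg1 regions were called in each of the 8 cocaine libraries, and Gabra4 had 2 and 4 regions in the male cocaine libraries.

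Gabrg1 encodes one of the less common gamma subunits of the brain, and each of its regions was called in every cocaine library. In diestrus, 4, 4 and 5 of its 5 regions were called in the control libraries and 5 in each cocaine library. In proestrus, 2, 3 and 4 were called in controls and 5 in each cocaine library. In males, 3 were called in each control library and 5 in both cocaine libraries. The groups overlapped in diestrus only, through diestrus control library 3, and male cocaine had the larger number although its libraries had the fewest peaks in all. With the same number of peaks taken from every library, the 75458 strongest, the values were 4, 3 and 4 against 3, 5 and 5 in diestrus, 2, 3 and 3 against 5, 4 and 4 in proestrus, and 2, 3 and 2 against 5 and 5 in males, so that diestrus overlapped further. With −log10 q of at least 5, males overlapped too, with 3, 3 and 3 against 4 and 3, as did diestrus with 4, 3 and 4 against 3, 5 and 5, while proestrus was apart with 2, 2 and 3 against 5, 4 and 4. Among all 8809 protein-coding genes with at least 5 kept regions, the cocaine libraries had more called regions without overlap in 4.03%, 11.5% and 0.874% in the 3 comparisons.

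Gabra4 showed the opposite pattern in males. It had 17, 18 and 16 called regions in the male controls and 4 and 2 after cocaine, or 53.1% of its regions on average against 9.38%. Fewer regions after cocaine without overlap was the common case in males, since it held for 58% of all genes with at least 5 kept regions. In diestrus the numbers were 24, 17 and 20 against 23, 8 and 11, and in proestrus 10, 11 and 12 against 23, 7 and 27. Both female comparisons thus overlapped, but only through diestrus cocaine library 1 (23) and proestrus cocaine library 2 (7). With the same number of strongest peaks per library, the male values fell to 3, 3 and 4 against 2 and 2. Most of the Gabra4 regions behind the gap in males were therefore not among the strongest peaks.

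The other genes lay between these, and 4 of them, like Gabra4, had fewer called regions in males without overlap. Gabra2 had 18, 17 and 25 called regions in diestrus controls and 25, 29 and 25 after cocaine, 23, 18 and 16 against 34, 21 and 34 in proestrus, and 12, 23 and 17 against 17 and 15 in males. Gabrb1 had 30, 26 and 29 against 46, 33 and 42 in proestrus and 40, 43 and 37 against 24 and 19 in males, and the groups did not overlap in either. In males its mean share of called regions went from 62.5% to 33.6%, beside 68.3% to 39.3% over all kept regions. Gabrg3, a gamma subunit gene with the longest locus of the 7, had 34, 35 and 41 against 37, 25 and 16 in diestrus, 27, 27 and 29 against 24, 26 and 19 in proestrus and 30, 21 and 29 against 18 and 13 in males. Gabrg3 thus had fewer called regions after cocaine in proestrus and males without overlap, as 22.9% of all genes with at least 5 kept regions had in proestrus and 58% in males. Gabra5, whose subunit is best known for tonic inhibition, had 5, 7 and 7 against 7, 3 and 2 in diestrus, 6, 6 and 5 against 4, 4 and 3 in proestrus, and 7, 4 and 8 against 3 and 2 in males. Its groups were apart in proestrus and males, in the same direction as Gabrg3 and against the same background. Gabrb2 had 42, 37 and 45 against 36, 22 and 30 in diestrus and 30, 41 and 36 against 25 and 25 in males, both without overlap, and its proestrus groups overlapped with 37, 26 and 33 against 45, 31 and 51. In diestrus 5.13% of all genes had fewer regions after cocaine without overlap. In males the mean share of Gabrb2 regions called went from 54.9% to 38.5%, a smaller difference than that of all kept regions. Gabrg3 and Gabra5 overlapped in diestrus only through diestrus cocaine library 1. Gabra2 and Gabrb2 overlapped in proestrus only through proestrus cocaine library 2. With the same number of strongest peaks per library, the groups named as apart for Gabrb1, Gabrg3, Gabra5 and Gabrb2 overlapped. The exception was Gabrb1 in proestrus (18, 16 and 16 against 25, 20 and 25). Gabra2 then had 9, 8 and 10 against 14, 13 and 16 in proestrus and 8, 6 and 7 against 9 and 11 in males, both without overlap. With −log10 q of at least 5 its male values turned to 9, 9 and 10 against 2 and 7. The share of all genes apart under these settings was not counted.

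**Figure D2:**
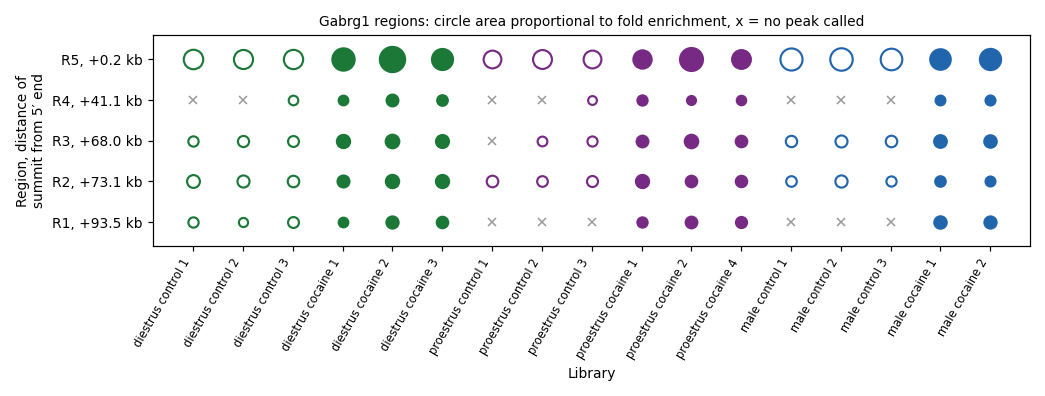
The 5 Gabrg1 regions in each of the 17 libraries, placed on the vertical axis by the distance of the summit from the 5′ end in kb. Circle area is proportional to fold enrichment, open circles are controls, filled circles cocaine libraries and crosses mark libraries without a peak. R1 and R4 carry most of the crosses, all of them in control libraries.

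The Gabrg1 difference came from 3 weak regions. R1, 93.5 kb from the 5′ end and just downstream of the gene (chr5:70748459-70749526), was called in all 8 cocaine libraries with fold enrichments of 2.85, 4.53 and 4.02 (diestrus), 3.20, 4.17 and 3.77 (proestrus) and 4.70 and 4.53 (males). It was called in the diestrus controls at 3.23, 2.57 and 3.63 and in none of the proestrus or male controls. R4, in an intron 41.1 kb from the start (chr5:70801282-70802150), was called in 8 of 8 cocaine libraries but in only 2 of 9 controls, at 2.80 in diestrus control library 3 and 2.37 in proestrus control library 3. The summits of R1 rested on 22 to 42 reads and those of R4 on 22 to 33. R3, an intronic region 68.0 kb from the start, was missing from proestrus control library 1 alone. Across all libraries R4 gave an unadjusted p of 0.00226 and R1 of 0.00905 in Fisher's exact test (two-sided, 8 cocaine against 9 control libraries), and neither passed after adjustment over 64304 regions (0.216 and 0.273). No member region passed that test, with 7 of the 155 members tested called more often and 5 less often after cocaine at an unadjusted p under 0.05. Over all regions tested, 0% passed after adjustment, and 3.81% were called more often and 9.23% less often without it.

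Within a sex or stage, a region was counted as gained if all cocaine libraries and none of the controls had a peak there, and as lost in the reverse case. With 3 against 3 or 2 against 3 libraries the smallest possible exact p is 0.1, so these counts carry no test. In diestrus 1 member region was gained against a background of 1.16% of all kept regions and 6 were lost (background 1.26%). The members' shares were 0.382% and 2.29%. The gained region was R113 in Gabrb1, 251 kb into the gene, with fold enrichments of 3.32, 2.89 and 2.64 after cocaine. Without diestrus cocaine library 1 the counts were 7 gained (2.67%, background 2.55% under the same omission) and 18 lost (6.87%, background 7.24%).

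In proestrus 9 member regions were gained (3.44%, background 2.45%) and 0 were lost (background 1.64%). Of the 9, 8 were in the chromosome 5 cluster: 1 in Gabrg1, 2 in Gabra2, 2 in Gabra4 and 3 in Gabrb1. R48, just downstream of Gabra4 and with an AP-1 site in its summit window, had 4.11, 3.21 and 3.98 in the proestrus cocaine libraries, and R1 and R48 were the strongest of the 9. Without proestrus cocaine library 2, the library with open oligodendrocyte markers, 35 were gained (13.4%, background 6.32% under the same omission) and 0 lost (background 2.47%). The part of that library's makeup in the count was not tested.

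In males 6 member regions were gained (2.29%, background 1.66%) and 27 were lost (10.3%, background 16.8%). The lost regions were 10 in Gabrb1, 6 each in Gabrg3 and Gabrb2, 4 in Gabra4 and 1 in Gabra5, while Gabrg1 and Gabra2 lost 0. Both Gabrg1 regions described above, R1 and R4, were among those gained. With the same number of strongest peaks per library 13 were gained (10.2%, background 4.08%) and 9 lost (7.03%, background 9.35%), so the balance between gain and loss in males turned with the number of peaks.

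**Figure D3:**
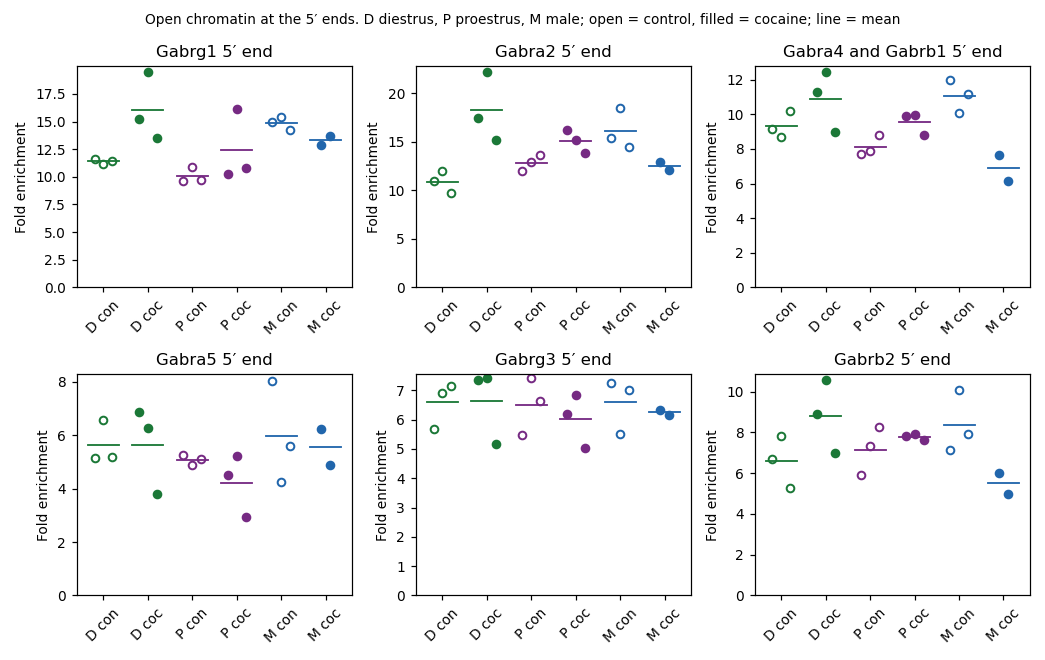
Fold enrichment of the region at the 5′ end of each member gene, 1 point per library, with group means as lines, and open circles for controls and filled circles for cocaine libraries. Gabra4 and Gabrb1 share 1 region. The 3 diestrus cocaine libraries were above all 3 diestrus controls at Gabrg1 and at Gabra2.

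At the 5′ ends, the levels are fold enrichments of the summit over the background of the same library, so they are printed for every library as deposited, and differences between groups were tested only after quantile normalization. The Gabra2 5′ end (R45, chr5:71090610-71098433) had fold enrichments of 11, 11.9 and 9.75 in diestrus controls and 17.5, 22.1 and 15.2 after cocaine. The values were 11.9, 12.9 and 13.6 against 16.2, 15.2 and 13.8 in proestrus, and 15.4, 18.5 and 14.5 against 12.9 and 12.1 in males. Before normalization, cocaine libraries were thus above controls in both female stages without overlap and below them in males. The unscaled median difference of all regions in males was itself -0.40 (log2). The share of all regions with groups apart before normalization was not counted, here and below. On the normalized scale the diestrus difference was 0.68 (log2, SE 0.13, limma adjusted p = 0.00288), a 1.61-fold rise. It was 0.18 (SE 0.13) in proestrus and -0.0042 in males, with limma adjusted p of 0.422 and 0.990. Without diestrus cocaine library 1 the diestrus difference was 0.82 (adjusted p = 3.59e-05), and it passed under all 22 alternatives (adjusted p up to 0.0377).

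The Gabrg1 5′ end (R5, chr5:70840432-70844272) had fold enrichments of 11.6, 11.2 and 11.4 in diestrus controls and 15.2, 19.5 and 13.6 after cocaine. In proestrus they were 9.61, 10.9 and 9.67 against 10.2, 16.1 and 10.8, and in males 14.9, 15.4 and 14.3 against 12.9 and 13.7. The groups were apart in diestrus and overlapped in proestrus. The diestrus difference was 0.42 (log2, SE 0.14, limma adjusted p = 0.0475). In males the normalized difference was positive, at 0.19 (adjusted p = 0.485), although both cocaine libraries were below the controls before normalization, and without scaling both Gabrg1 regions tested in males were negative.

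Gabrb1 has a second transcript start 43.0 kb inside the gene (R79, chr5:71699487-71703639), with fold enrichments of 5.55, 7.37 and 6.33 in diestrus controls and 8.90, 10.2 and 7.58 after cocaine. The difference was 0.45 (log2, SE 0.15, limma adjusted p = 0.0470). The values in proestrus were 5.38, 6.73 and 6.63 against 7.21, 8.34 and 6.91, and in males 9.31, 9.23 and 8.45 against 7.11 and 5.81. As at Gabra2, the female cocaine libraries lay above their controls and the male ones below, before normalization. R5 and R79 sat near the threshold, and each passed under 7 of 22 alternatives, with adjusted p up to 0.235 and 0.229. The call at both was lost with median scaling, no scaling and the diestrus groups fitted alone, and without diestrus control 2 or 3, diestrus cocaine 2 or 3, any proestrus control, male control 1 or 3 or either male cocaine library, at R5 also without proestrus cocaine 4, and at R79 also without diestrus control 1. Without diestrus cocaine library 1 they passed with adjusted p of 0.00329 and 0.00936. Diestrus cocaine libraries 1 and 2 also had the highest summed fold enrichment at the medium spiny neuron marker 5′ ends. It was 148 and 146.9, against 90.9 in diestrus cocaine library 3 and 85.8 to 119.8 in all other libraries. At the neuronal marker 5′ ends these libraries had 93.2 and 94.8, against 64.5 in diestrus cocaine library 3. The diestrus controls had 67.3 to 83.5 there and the male controls 88 to 94.2. The part of these levels in the diestrus differences at R45, R5 and R79 was not tested.

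These 3 regions were all that rose in diestrus, and 0 of the 36 fell (background 6.65% higher and 6.36% lower). Without diestrus cocaine library 1, 4 rose and 2 fell, when 29.6% of all regions passed in either direction. In proestrus 0 of 36 rose and 0 fell in the limma test (background 2.57% and 2.44%), with a smallest adjusted p of 0.0904, and 2 higher and 4 lower at an unadjusted p under 0.05. Fisher's test on the calls pooled all 17 libraries, so it gives no result for proestrus alone. Without proestrus cocaine library 2, 1 rose and 2 fell in the limma test, when 11% of all regions passed.

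The remaining 5′ ends passed no cocaine comparison. The start shared by Gabra4 and Gabrb1, which point away from each other (R78, chr5:71652604-71659788), had 9.16, 8.71 and 10.2 in diestrus controls against 11.3, 12.5 and 8.96, and 12, 10.1 and 11.2 in male controls against 7.65 and 6.16. Gabrb2 (R198, chr11:42418340-42423692) had 6.71, 7.82 and 5.29 against 8.90, 10.6 and 7.01 in diestrus and 7.14, 10.1 and 7.90 against 6.01 and 5 in males. The male groups did not overlap at either start before normalization, and the share of all regions so apart was not counted. Gabra5 (R196, chr7:57508255-57510596) ranged from 2.93 in proestrus cocaine library 4 to 8.03 in male control library 1. Gabrg3 (R186, chr7:57383239-57388845) ranged from 5.03 to 7.43. Cocaine and control groups overlapped at both starts in all 3 comparisons.

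**Figure D4:**
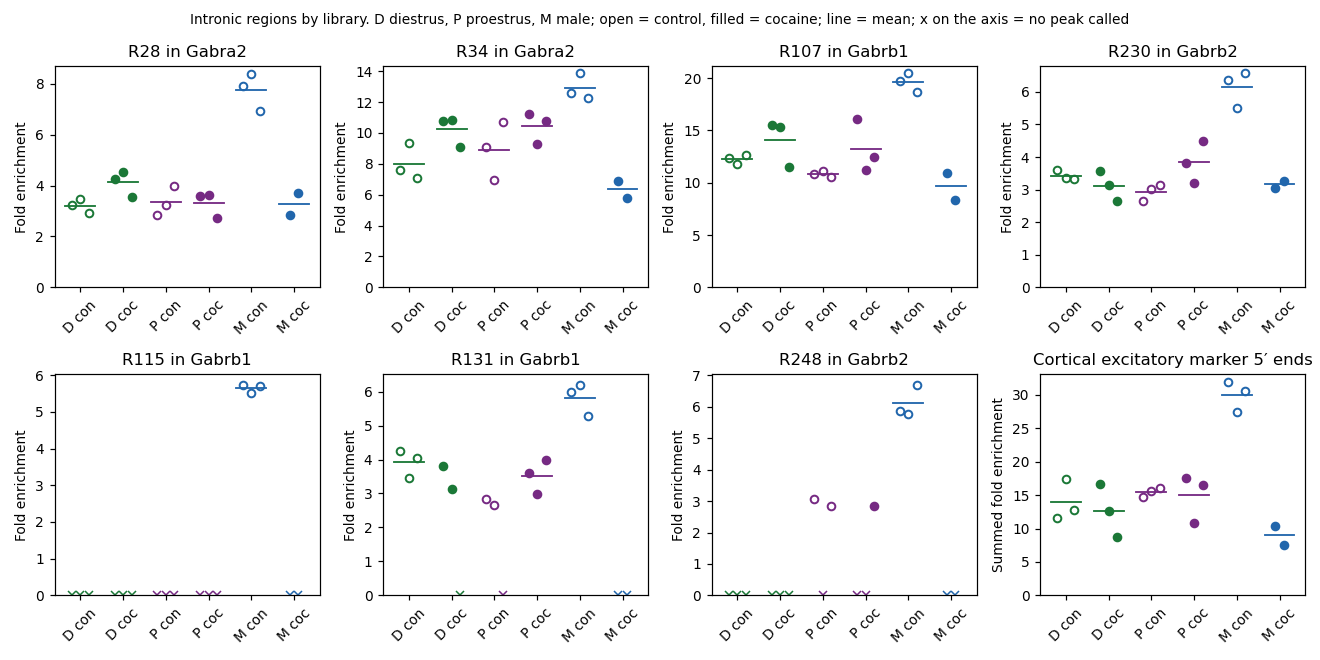
Fold enrichment in 7 intronic regions, 1 point per library, and in the last panel the summed fold enrichment of the 5′ ends of 5 cortical excitatory marker genes. Open circles are controls and filled circles cocaine libraries. Lines are means of groups in which every library had a peak, and crosses on the axis are libraries without one. The 3 male controls lay above the other 14 libraries in all 8 panels, and R115 was called in no other library.

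In males, 5 of the 36 regions fell after cocaine and 1 rose (background 5.06% lower and 3.54% higher). The largest difference was at R28, in an intron of Gabra2 69.7 kb from its start, with fold enrichments of 7.90, 8.40 and 6.92 in male controls and 2.84 and 3.72 after cocaine. The 12 female libraries had 2.72 to 4.53. Before normalization, male controls were thus above every other library, and the male cocaine libraries were among the females. The male difference was -0.81 (log2, SE 0.19, limma adjusted p = 0.00686), which is 1.75-fold lower after cocaine. It lost its call without male cocaine library 1 (-0.56, adjusted p = 0.213).

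R107, an intronic region of Gabrb1 171 kb from the start (chr5:71827263-71830950), had 19.8, 20.5 and 18.7 in male controls and 10.9 and 8.37 after cocaine, while the female libraries had 10.5 to 16.1. The male difference was -0.65 (log2, SE 0.16, limma adjusted p = 0.00778), and without male cocaine library 2 it was -0.51 (adjusted p = 0.178). R34, in a Gabra2 intron 33.9 kb from the start (chr5:71060138-71063390), had 12.6, 13.9 and 12.3 against 6.89 and 5.81, and fell by 0.58 (adjusted p = 0.0347). Both R107 and R34 carry an AP-1 site in the summit windows printed above. R58 in Gabra4 (chr5:71602890-71610864) had 9.56, 9.36 and 8.12 against 4.26 and 4.53 and fell by 0.55 (adjusted p = 0.0416). R230 in Gabrb2 (chr11:42527043-42531558) had 6.37, 5.51 and 6.59 against 3.06 and 3.25 and fell by 0.54 (adjusted p = 0.0481). In all of these the male groups did not overlap before normalization, and the share of all regions so apart was not counted. R34 lost its call under 5, R58 under 8 and R230 under 16 of 22 alternatives, with adjusted p up to 0.262, 0.275 and 0.280. The omission of male control 2 or 3 or of either male cocaine library ended all 3 calls, as did a fit with the replicate number as a block. R58 also lost its call without male control 1, diestrus control 3 or proestrus control 2, and R230 without male control 1, any diestrus or proestrus control, diestrus cocaine 2 or proestrus cocaine 1 and with median scaling (adjusted p = 0.0922) or GC-binned centring, in which values are centred per library among regions of like GC content (0.0505).

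The single region that rose in males was R148, in an intron of Gabrg3 (chr7:56895657-56896977), with 5.10, 4.68 and 4.94 in controls and 5.36 and 5.58 after cocaine. The normalized difference was 0.62 (log2, SE 0.19, limma adjusted p = 0.0400), larger than the difference in fold enrichment, and with no scaling it was 0.16 (adjusted p = 0.610). Leaving out either male cocaine library (adjusted p = 0.144 and 0.245) or any male control also ended the call, as did the replicate block. The unscaled values of all regions fell by 0.40 (log2, median) in males after cocaine, and without scaling 10 member regions fell and 0 rose. In pooled nuclei, fewer nuclei with an open site and a less open site in each nucleus cannot be told apart.

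Regions lost in males were by definition called in all male controls and in neither male cocaine library, so that their order in males was fixed by the choice and their values are a description. R115 in Gabrb1 (chr5:71917098-71917698) was called in the male controls only, at 5.74, 5.51 and 5.71, on 39 to 51 reads. R248 in Gabrb2 had 5.86, 5.78 and 6.70 in male controls and at most 3.06 elsewhere. R131 in Gabrb1 had 5.99, 6.20 and 5.27 in male controls, 2.67 to 4.26 in 10 female libraries and no peak after cocaine in males. In all, 6 of the 262 member regions were called in the 3 male controls and none of the other 14 libraries (2.29%), compared with 4.71% of all kept regions.

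Control libraries were compared between the sexes and stages without cocaine. Between male and diestrus controls 5 of the 36 were higher in males and 5 lower (background 12.8% and 12.2%). R28 was 1.06 higher in males (log2, SE 0.17, limma adjusted p = 4.82e-05), a 2.09-fold difference, R230 was 0.64 higher (adjusted p = 0.00362), R34 0.55, R107 0.51 and the Gabra2 5′ end 0.41. The 5 lower regions were R128 in Gabrb1 and 4 in Gabrg3, of which R185, its most accessible region, had 10.1, 11.9 and 12 in diestrus controls and 10.1, 8.40 and 8.67 in male controls (-0.52, SE 0.14, adjusted p = 0.00682). Between male and proestrus controls 3 were higher (background 7.89%) and 2 lower (7.08%): R28 by 0.86 (adjusted p = 0.00104), R230 by 0.75 (0.00152) and R107 by 0.51 (0.0125), and R140 and R179 in Gabrg3 by -0.51 and -0.53. R28 and R230 passed in both comparisons under all 22 alternatives. Against diestrus controls, R34 lost its call without diestrus control 3 (adjusted p = 0.0781) or male control 2 (0.0679), and R107 without diestrus control 2 (0.0549) or male control 2 (0.0507). The Gabra2 5′ end did so with median scaling (0.053) and GC-binned centring (0.0568), and without diestrus control 3 (0.151) or male control 2 (0.191), and R128 without scaling (0.0509) and without diestrus control 3 (0.117) or male control 2 (0.0765). R107 also lost its call against proestrus without proestrus control 3 (0.068) or male control 2 (0.0657). All Gabrg3 differences lost their calls with no scaling, where 6 members were higher in males than in diestrus and 10 than in proestrus and 0 were lower in either, and where the median of all regions moved by 0.17 and 0.34 (log2). All 9 Gabrg3 regions were lower in males than in diestrus with and without scaling, while 8 of 9 were lower than in proestrus with it and 3 of 9 without. Of the 1762 tested regions of chromosome 7, 426 were lower and 26 higher in male than in diestrus controls past the threshold. Against proestrus controls 268 were lower and 29 higher.

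The male control libraries were also those with the highest summed level of cortical excitatory markers (27.4 to 31.9 against 7.56 to 17.6). The part of these markers in the male control levels of R28, R34, R107 and R230, and in the male cocaine differences, was not tested.

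Between proestrus and diestrus controls, 0 of 36 regions were higher and 0 lower in the limma test (background 0.176% and 0.516%), with 3 higher and 1 lower in proestrus at an unadjusted p under 0.05. By calls, 0 member regions were seen in all proestrus controls and no diestrus control (background 0.792%) and 3 in the reverse (3.96%). Called in all male and no diestrus controls were 10 (9.05%) and in the reverse 6 (3.02%), and against proestrus controls 11 (10.5%) and 1 (1.42%).

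The cocaine effect itself was compared between males and females. Of 36 regions, 4 had a more positive effect in males than in females (background 9.81%) and 5 a more negative one (background 9.9%). The 5 were R28 (-0.92, SE 0.23, limma adjusted p = 0.00632), R34 (-0.84, adjusted p = 0.00643), R107 (-0.83, adjusted p = 0.00329), R231 (-0.63) and R230 (-0.61), in Gabra2, Gabrb1 and Gabrb2. At R231, the most accessible Gabrb2 region (chr11:42531737-42537545), fold enrichment was 8.65, 9.16 and 8.20 in diestrus controls and 12.2, 12.1 and 8.61 after cocaine, against 11.2, 13.1 and 11.6 in male controls and 6.89 and 6.16 after cocaine. R28, R34 and R107 each lost this call without 1 male cocaine library, R231 under 3 and R230 under 10 of 22 alternatives. The 4 with a more positive effect in males were all in Gabrg3, and lost it under 4 to 13 alternatives. Of the 1762 tested regions of chromosome 7, 664 had a more positive effect in males past the threshold and 6 a more negative one. At R183 (chr7:57356523-57358610) the values were 6.97, 9.71 and 8.41 against 10.4, 6.04 and 3.33 in diestrus, 6.02, 5.57 and 5.31 against 4.91, 5.45 and 4.40 in proestrus and 7.39, 6.20 and 6.59 against 6.89 and 6.16 in males. The unscaled median over all regions of this comparison was -0.48, and without scaling 0 member regions were more positive and 17 more negative. Between the proestrus and diestrus effects 0 of 36 differed in the limma test (background 0.00543% and 0%), with 2 higher and 1 lower at an unadjusted p under 0.05.

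**Figure D5:**
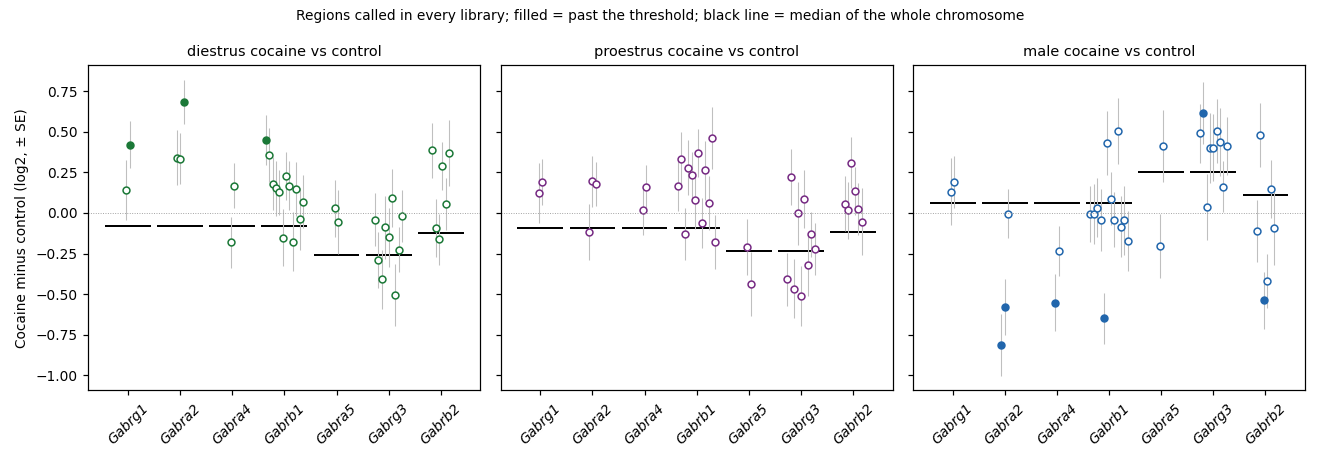
Cocaine minus control difference (log2, normalized fold enrichment, ± SE) of the 36 regions called in every library, by gene and for each sex and stage. Filled points passed the limma threshold and black lines are the median over all tested regions of the chromosome. All 9 Gabrg3 regions lay above zero in males under quantile normalization and 3 of 9 did with no scaling.

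The clusters followed their chromosomes to different degrees. On chromosome 7, the median difference of the 11 tested regions was -0.09 in diestrus, -0.22 in proestrus and 0.41 in males (log2), and that of all 1762 tested regions of the chromosome was -0.26, -0.23 and 0.25. Gabrg3 therefore moved in the direction of its chromosome in each group. In males 9 of 9 Gabrg3 regions were positive, with a median of 0.41, beside 84.9% of the chromosome, but with no scaling 3 of 9 were, with a median of -0.03. The chromosome 5 cluster stood the other way from its chromosome: its 19 tested regions had medians of 0.17 in diestrus, 0.17 in proestrus and -0.04 in males, against -0.08, -0.09 and 0.06 for the 2265 regions of chromosome 5. In each female stage 15 of the 19 were positive, and with GC-binned centring 12 were in proestrus. In males the cluster's median turned to 0.04 with median scaling, with 12 of 19 positive instead of 6. Gabrb2 had medians of 0.17, 0.04 and -0.10 over 6 regions, against -0.12, -0.12 and 0.11 for chromosome 11. With GC-binned centring the proestrus median of Gabrb2 turned to -0.06, with 2 of 6 regions positive instead of 5. These medians are descriptions and were not tested against the chromosomes.

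Other genes of GABA signalling were counted in the same way, from a fixed list. Of 15 tested regions of the other GABA-A subunit genes, 1 rose and 1 fell in diestrus, 2 rose and 1 fell in proestrus, and 0 rose and 1 fell in males. Of 43 regions of genes for GABA synthesis, transport and the GABA-B receptor, 0 rose and 2 fell in diestrus, 1 rose and 1 fell in proestrus, and 10 rose and 2 fell in males. Of 36 regions of genes that anchor or traffic receptors, 2 rose and 6 fell in diestrus, 0 rose and 3 fell in proestrus and 4 rose and 0 fell in males. Of all regions tested in diestrus 6.65% rose and 6.36% fell, compared with 2.57% and 2.44% for proestrus and 3.54% and 5.06% for the male libraries. By calls in males, the synthesis, transport and GABA-B genes lost 37 of 200 kept regions (18.5%, background 16.8%) and gained 1 (0.5%, background 1.66%), and the other subunit genes lost 3 of 96 and gained 3 (3.13% each).

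An AP-1 site was present in the 201-base summit window of 36 of 262 member regions (13.7%), compared with 10.1% of all kept regions. By gene, it was found in 9 of 41 regions of Gabra2, 10 of 49 of Gabrg3, 5 of 32 of Gabra4, 7 of 60 of Gabrb1 where each shared region counts for 1 gene, 5 of 65 of Gabrb2 and 0 of Gabrg1 and Gabra5. A CRE was found in 0 members and 0.498% of all regions, and a TATA sequence in 56 members (21.4%) and 15.1% of all. The members were poorer in G and C, with a median of 38.1% against 45.3%. Among regions gained in diestrus or proestrus, 22.2% and 17.5% of all held an AP-1 site, and of the members 0 of 1 and 1 of 9 did. In males the share among all gained regions was lower, at 4.12%, and 0 of 6 gained members held a site. In the 200 bases before each of 32851 RefSeq starts, an AP-1 site was present in 3.66%, a CRE in 1.47% and a TATA sequence in 9.96%.

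The 5′ ends whose level varied most like that of a member were listed from 11552 genes, over the 17 libraries, which share groups and depth. The closest to Gabra2 were Cxxc4, Ankrd13c and Sub1 (Pearson r of 0.97, 0.95 and 0.95), and among the closest to Gabrg1 were Ecd and Fam149b (both 0.90). For the start shared by Gabra4 and Gabrb1 they were Apoo, Fam90a1b and Lmo4 (0.81, 0.81 and 0.80), for Gabrb2 Nab1, Nsun6 and Srek1 (0.91, 0.88 and 0.88), for Gabra5 Macrod1, Ube2z and Plekhm1 (0.91, 0.89 and 0.88) and for Gabrg3 Ddx6, Castor2 and Nsf (0.89, 0.88 and 0.86). The equal values of Ecd and Fam149b, and of Apoo and Fam90a1b, can each stand for a single shared region.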

How the data were processed

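ATAC-seq libraries of NeuN-sorted nucleus accumbens nuclei were compared in 6 groups taken from the sample labels (n = 3 libraries, 2 for male cocaine, each pooled from 3 mice). The authors trimmed adapters, mapped reads to mm10 using BWA-MEM, and ran the peak caller MACS2 on every library by itself. Versions of these mapping and peak calling tools are not given in the sources used here. The deposited peak lists hold, per library, a score, the fold enrichment of the summit over background (a ratio), and −log10 p and −log10 q values. The authors tested read counts from featureCounts with DESeq2, which was not repeated, since no read counts were used here.

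Peaks overlapping by 1 bp or more were merged and kept when 2 libraries of 1 group held them. Every fold enrichment was a whole multiple (tolerance 0.05) of a step that gave a background pileup of 6.26 to 9.55 reads, from which summit reads were derived. They show depth at a summit, not library totals, and limit precision at weak regions. Calls were compared by Fisher's exact test over regions called in 4 to 13 libraries, and levels by limma 3.58.1 (R 4.3.3, lmFit and eBayes with trend) on quantile-normalized log2 fold enrichment in regions called in all 17 libraries, with Benjamini-Hochberg adjustment over all such regions and a threshold of 0.05. P-values measure the spread between pools. Named regions were the 5′ end and most accessible region of each gene, up to 5 per limma comparison by p, up to 5 gained and lost per sex or stage by level, and the 5 smallest Fisher p. Members, gene lists and rules were chosen with earlier results of these data known. Python 3.11.15, numpy 2.4.6, scipy 1.17.1 and pysam 0.24.0 were used, and both tests were checked on simulated data. Alternatives were other scalings, stricter or equal numbers of peaks, narrower peaks, unextended genes, a replicate block, separate fits, each library left out, and, added after seeing the data, centring within 20 bins of GC content. A few values of single genes outside the 7 are not reported here.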

Additional observations from a re-analysis of the deposited data

Results flagged for a closer look

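At 9 of the 36 tested regions the cocaine effect differed between males and females (limma test of the difference between the male effect and the mean of the 2 female effects, adjusted over 36847 regions). Of all 36847 regions, 9.81% passed with a more positive effect in males and 9.9% with a more negative one. The difference, male minus female on the log2 scale, was -0.92 at R28 and -0.84 at R34 in Gabra2, -0.83 at R107 in Gabrb1, and -0.61 at R230 and -0.63 at R231 in Gabrb2. It was 0.71 at R140, 0.65 at R148, 0.73 at R168 and 0.85 at R183, all in Gabrg3. Over all of chromosome 7, 664 of 1762 tested regions passed with a more positive effect in males and 6 with a more negative one. R168 (chr7:57175572-57176445) is outside the naming rule and was named after its values were seen. Without male cocaine library 1 the difference at R28 no longer passed (adjusted p = 0.0998), and without male cocaine library 2 those at R34 and R107 did not (0.0608 and 0.0547). R231 lost its call without male control library 2 (0.0921) or male cocaine library 1 (0.0755) or 2 (0.116). R230 lost its call under 10 of 22 alternatives, with adjusted p of 0.0808 with median scaling, 0.08 with GC-binned centring and up to 0.157 without male cocaine library 1. R140 did so under 5, R148 under 13, R168 under 7 and R183 under 4. With no scaling the 4 in Gabrg3 did not pass (adjusted p of 0.667, 0.749, 0.552 and 0.489, in the order above).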

How the results depend on the processing

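No named difference past the threshold changed sign under any alternative, with 574 values that kept their call and 152 that lost it. Of the member counts, 53 values stayed within 1.5 times of the reported one and 23 moved, beside those that leave out a library. With −log10 q of at least 5, 2 regions were lost in diestrus and 1 gained in males. With equal numbers of peaks, 2 were gained and 3 lost in diestrus, 4 gained in proestrus, and 13 gained and 9 lost in males. With peaks cut to 100 bp either side of the summit, 2 were gained in diestrus, 1 lost in proestrus and 10 gained in males. For levels, diestrus had 1 of 36 regions past the threshold with median scaling, 1 of 36 with no scaling and 1 of 58 with its groups fitted alone. Groups fitted alone tested more member regions. They gave 1 of 61 in proestrus, 10 of 44 in males and 2 of 63 between proestrus and diestrus controls. Between male and diestrus controls they gave 18 of 60, and between male and proestrus controls 10 of 52. No scaling gave 10 for male cocaine, 6 and 10 for male against diestrus and proestrus controls, and 17 for the male against female effect. The unscaled medians of all regions were -0.40, 0.17, 0.34 and -0.48 (log2), in that order. Shares of all regions past the threshold under these settings are not given here. GC-binned centring gave 3, 0 and 5 in the 3 cocaine comparisons.

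Leaving out 1 library at a time gave 3 to 7 gained and 7 to 18 lost in diestrus, 9 to 35 gained and 0 to 4 lost in proestrus, 6 to 12 gained and 32 to 42 lost in males, and 0 to 0 past Fisher's adjusted threshold. The extremes came without diestrus cocaine 2 and 1, without proestrus cocaine 2 (35) and proestrus control 1 (4), without male cocaine 2 (12 and 32) and male control 2 (42). Gained and lost counts cannot fall when a library is left out, since the rule then asks for fewer libraries. Shares over all kept regions rose too. For lost in diestrus the share went from 1.26% to 7.24% without diestrus cocaine 1. For gained in proestrus it went from 2.45% to 6.32% without proestrus cocaine 2. The limma counts were 1 to 6 in diestrus (without diestrus cocaine 2 and 1), 0 to 3 in proestrus (3 without proestrus cocaine 2), 1 to 6 in males (1 without either male cocaine library), 0 to 0 for proestrus against diestrus controls, 3 to 12 for male against diestrus controls (3 without male control 2), 2 to 5 for male against proestrus controls (2 without male control 2), 1 to 12 for the male against female effect (1 without male cocaine 2) and 0 to 0 for the proestrus against diestrus effect.

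The replicate block gave 3, 0 and 2 regions in the diestrus, proestrus and male cocaine comparisons, against 3, 0 and 6 without it. In males it ended the calls at R34 (adjusted p = 0.0596), R58 (0.0662), R148 (0.062) and R230 (0.0716), and for the male against female effect those at R148 (0.0666) and R230 (0.0789). Deviations of same-numbered cocaine and control libraries from their group means correlated by -0.23 to 0.15 within a sex or stage. Whether the numbers stand for a batch was not tested. At weak regions such as R1, summits of 22 to 42 reads limit what can be called.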
